A study of Mus musculus with 4 samples.

Results

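Glutathione S-transferases join glutathione to reactive electrophiles, and 10 of their genes were followed here in Leydig cells, which make testosterone between the tubules of the testis. The genes were taken by name: Gsta1, Gsta2, Gsta3 and Gsta4 of the alpha class, Gstm1 and Gstm2 of the mu class, Gstp1 of the pi class, Gstt1 of the theta class, Gsto1 of the omega class, and Mgst1, a membrane-bound enzyme. All 10 had a row among the 27357 Ensembl gene IDs in the files, and 9 of the 12391 genes that passed the filter on low values (at least 1 RPKM, a read density scaled to gene length and library size, in 2 libraries or more) were among them. Gsta1 did not pass.

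The cells came from testes of male mice that carried a C2orf74 knockout (KO, 2 libraries) or were wild type (WT, 2 libraries). Mice of both genotypes ate a high-fat diet for 12 weeks from the age of 8 weeks, and no library comes from mice on another diet. The labels give neither the strain, the allele and the cells in which it acts, nor whether the libraries of a genotype came from separate or pooled animals. The p-values therefore speak only of library-to-library spread, part or all of which may be technical.

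Depth was 15694389 and 19764004 reads in KO and 13847807 and 15817093 in WT, computed from the smallest increments of the RPKM values. The mouse gene for C2orf74, 1700093K21Rik, had 0 reads in both KO libraries, against 0 and 4 reads in WT, so it did not check the labels at this depth. A count of 0 allowed up to 0.0952 and 0.0756 RPKM in the KO libraries and 0.108 RPKM in WT replicate 1, for counting error only. All 8 Leydig markers (Hsd3b1, Hsd3b6, Cyp11a1, Star, Insl3, Lhcgr, Cyp17a1 and Nr5a1) passed the filter, although Cyp17a1, needed for androgen synthesis, had only 2.12 and 1.47 RPKM in KO and 0.900 and 1.90 RPKM in WT. The Leydig markers summed to 1715 and 1806 RPKM in KO, against 1630 and 1444 RPKM in WT, and 3 of the 8 had a negative log2 change. The higher sum in KO came mainly from Hsd3b6 and Hsd3b1, while Insl3 had 73.02 and 81.5 RPKM in KO, against 164 and 133 RPKM in WT. Markers of other testis cells were present. The macrophage markers summed to 770 and 1206 RPKM in KO, against 1461 and 1115 RPKM in WT, and all 11 that passed the filter had a negative log2 change. Endothelial markers summed to 21.6 and 18.01 RPKM in KO and to 31.4 and 35.7 RPKM in WT, and peritubular myoid markers to 189 and 174 RPKM in KO and to 221 and 252 RPKM in WT. Acta2 made up most of the peritubular myoid sums, and Lyz2 most of the macrophage sums. All 5 peritubular myoid markers that passed the filter had a negative log2 change. Germ cell markers summed to at most 3.995 RPKM in any library. The Sertoli list summed to 47.0 and 25.8 RPKM in KO and to 38.4 and 44.8 RPKM in WT, nearly all of it Inha, while Sox9, Wt1, Amh, Cldn11 and Rhox5 were near or below 1 RPKM and Rhox5 was at 0 in WT replicate 1.

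The cytosolic enzymes of this family work as dimers and differ between classes in the substrates they take. They detoxify products of lipid peroxidation and foreign compounds, and many of their genes respond to the stress factor NRF2 and the aryl hydrocarbon receptor. Leydig cells are rich in lipid and in cytochrome P450 enzymes, which can leak reactive oxygen during steroid synthesis. In humans the alpha class enzyme GSTA3 also carries out the double-bond isomerisation of steroid hormone synthesis.

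The family was abundant in every library, and the mu class made up most of it. Summed over the 10 genes, the level was 5934 and 3436 RPKM in KO, against 4372 and 4225 RPKM in WT. KO replicate 1 lay above both WT libraries and KO replicate 2 below both. Those sums were 1.95% and 1.12% of all RPKM in KO, against 1.43% and 1.38% in WT. By mean level over the 4 libraries the order was Gstm1 (2406 RPKM), Gstm2 (1160), Mgst1 (359), Gstp1 (227), Gsta3 (167), Gsta4 (77.9), Gsta2 (50.3), Gsto1 (32.8), Gstt1 (12.1) and Gsta1 (0.0900). The ranges over the libraries overlapped between Gstp1 and Gsta3 and between Gsta4 and Gsta2, and between no other neighbours in that order.

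**Figure D1:**
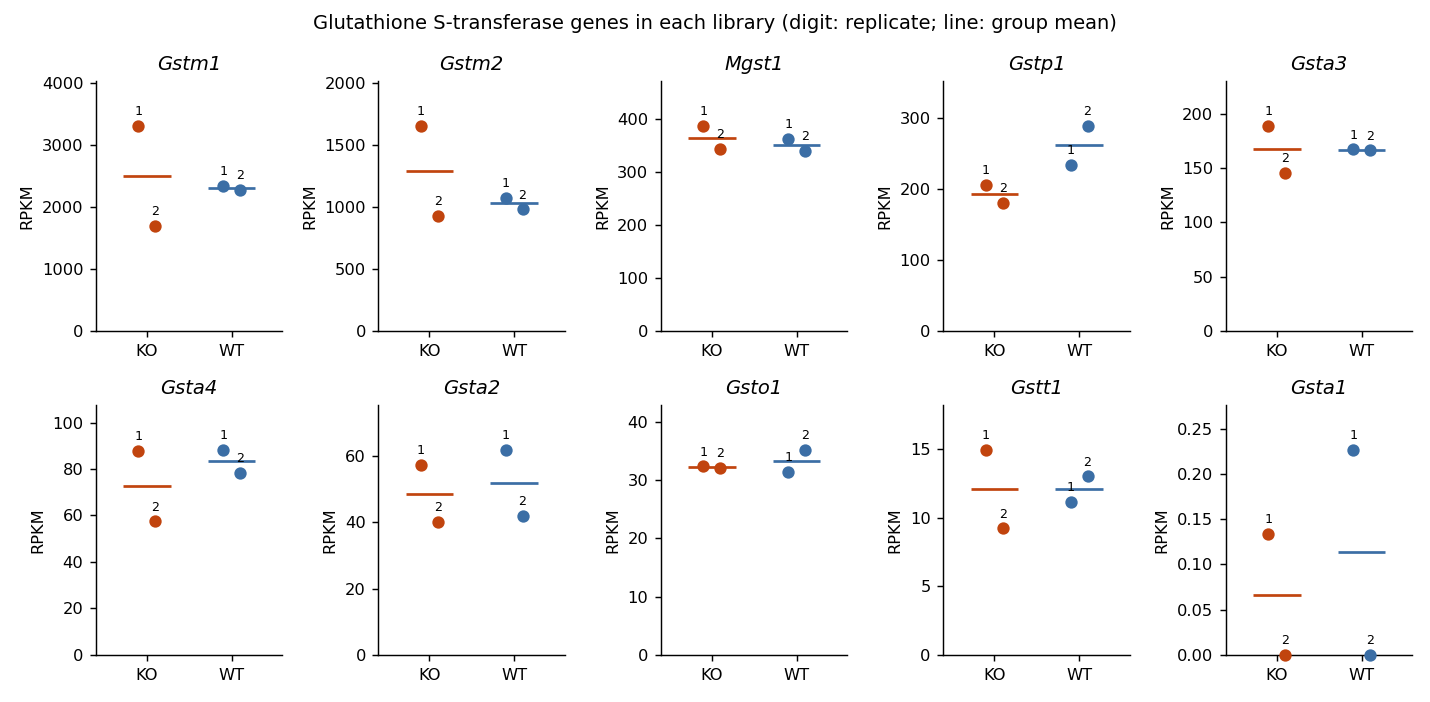
Level in RPKM (vertical axes, each from 0) of the 10 glutathione S-transferase genes in the KO and WT libraries; each point is a library, its digit the replicate and each line the group mean. The KO points of Gstm1 (3308 and 1698 RPKM) lie on both sides of the WT points (2337 and 2279 RPKM), and only Gstp1 has both KO points below both WT points.

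None of the genes differed between the genotypes at a false discovery rate of 0.05. The test was limma on log2(RPKM + 1), adjusted over all 12391 genes, of which 0 passed (0% of genes tested). At an unadjusted p under 0.05 there were 1455 genes (11.7% of genes tested) and, of the glutathione S-transferases, 1 of 9, Gstp1. Split by direction, 7.42% of genes tested were lower and 4.33% higher in KO at that threshold. The median log2 change of the 9 genes was -0.03, and that of all genes tested was -0.02; 6 of the 9 had a negative log2 change, as did 53.8% of genes tested. Without KO replicate 1 limma called 306 genes, and without KO replicate 2 it called 139, none of them among the 9. With 2 libraries a group the smallest 2-sided exact permutation p for a single value is 0.333.

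Some of these genes resemble other genes closely enough that short reads can be assigned to the wrong copy. Of the distinct stretches of 50 bases in the annotated transcripts, 90.5% of those of Gsta1, 49.8% of Gsta2, 33.7% of Gstp1, 18.9% of Gstm1 and 5.65% of Gstm2 were also found in transcripts of another gene. At 100 bases these shares were 80.6% for Gsta1, 28.4% for Gsta2, 25.1% for Gstp1, 5.86% for Gstm1 and 0.357% for Gstm2. For Gsta4, Gstt1, Gsto1 and Mgst1 the share was 0% at both lengths, and for Gsta3 it was 0.273% at 50 bases. Neither the read length nor the handling of reads that match several places is stated in the labels, so the levels of Gsta1, Gsta2, Gstp1 and Gstm1 are uncertain to that extent.

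**Figure D2:**
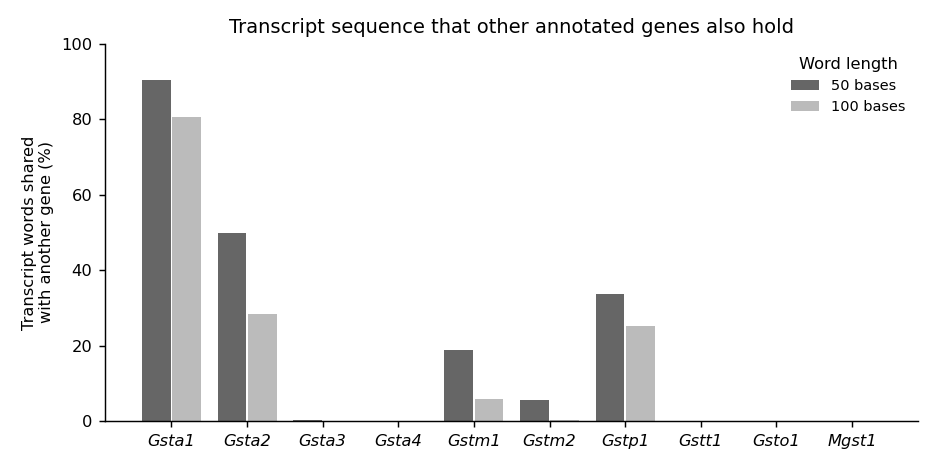
Percent of the distinct transcript stretches of 50 bases (dark) and 100 bases (light) of each gene that are also found in transcripts of another annotated gene. Gsta1 (90.5% and 80.6%), Gsta2 (49.8% and 28.4%) and Gstp1 (33.7% and 25.1%) share most, while Gsta4, Gstt1, Gsto1 and Mgst1 share none.

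The promoters of 7 genes are shown. They cover the near-copies Gsta1 and Gsta2, the mu class pair, Gstp1, and the members whose window held the antioxidant core defined below. Each runs from 250 bases before the annotated start to 50 after it, 5′ to 3′ on the gene's strand, from RefSeq on GRCm38. Of the 10 genes, 9 had an entry, and Gsta4 was not matched. Capitals mark the core of the antioxidant response element bound by NRF2 (TGACNNNGC) or of the xenobiotic response element bound by the aryl hydrocarbon receptor (GCGTG), on either strand; no window held more than 1 match.
Gsta1 (chr9:78230419-78230718, plus strand): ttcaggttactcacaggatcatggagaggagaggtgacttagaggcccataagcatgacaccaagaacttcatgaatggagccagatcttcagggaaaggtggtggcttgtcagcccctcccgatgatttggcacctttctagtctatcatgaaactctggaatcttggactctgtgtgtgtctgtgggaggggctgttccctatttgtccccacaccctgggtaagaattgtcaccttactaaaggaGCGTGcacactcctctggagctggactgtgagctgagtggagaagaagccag
Gsta2 (chr9:78347096-78347395, minus strand): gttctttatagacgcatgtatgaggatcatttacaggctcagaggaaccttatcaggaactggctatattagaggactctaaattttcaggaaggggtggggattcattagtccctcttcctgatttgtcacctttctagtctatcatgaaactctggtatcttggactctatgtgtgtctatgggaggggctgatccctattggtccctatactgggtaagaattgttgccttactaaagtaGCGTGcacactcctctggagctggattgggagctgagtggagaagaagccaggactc
Gsta3 (chr1:21240335-21240634, plus strand): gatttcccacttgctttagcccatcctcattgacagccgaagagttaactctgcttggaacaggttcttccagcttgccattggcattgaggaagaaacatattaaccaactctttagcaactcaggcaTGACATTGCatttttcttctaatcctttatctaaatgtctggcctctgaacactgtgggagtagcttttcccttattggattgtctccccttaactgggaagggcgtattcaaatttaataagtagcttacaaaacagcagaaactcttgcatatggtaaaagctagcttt
Mgst1 (chr6:138140277-138140576, plus strand): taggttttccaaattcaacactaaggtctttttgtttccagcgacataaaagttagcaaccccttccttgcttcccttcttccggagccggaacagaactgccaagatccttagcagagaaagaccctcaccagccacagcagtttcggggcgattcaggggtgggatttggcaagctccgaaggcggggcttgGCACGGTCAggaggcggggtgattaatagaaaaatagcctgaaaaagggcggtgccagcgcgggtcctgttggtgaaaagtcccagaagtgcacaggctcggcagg
Gstm1 (chr3:108017924-108018223, minus strand): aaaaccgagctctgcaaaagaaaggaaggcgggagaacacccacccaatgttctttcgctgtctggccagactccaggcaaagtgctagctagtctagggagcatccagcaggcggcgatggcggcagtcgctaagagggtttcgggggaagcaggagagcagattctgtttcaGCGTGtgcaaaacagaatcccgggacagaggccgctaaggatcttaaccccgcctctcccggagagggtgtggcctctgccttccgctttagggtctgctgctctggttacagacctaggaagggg
Gstm2 (chr3:107986371-107986670, minus strand): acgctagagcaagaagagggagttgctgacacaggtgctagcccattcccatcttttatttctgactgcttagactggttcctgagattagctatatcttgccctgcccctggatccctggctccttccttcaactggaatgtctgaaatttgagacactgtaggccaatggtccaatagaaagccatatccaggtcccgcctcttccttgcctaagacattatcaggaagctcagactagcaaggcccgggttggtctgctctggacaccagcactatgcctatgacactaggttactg
Gstp1 (chr19:4037863-4038162, minus strand): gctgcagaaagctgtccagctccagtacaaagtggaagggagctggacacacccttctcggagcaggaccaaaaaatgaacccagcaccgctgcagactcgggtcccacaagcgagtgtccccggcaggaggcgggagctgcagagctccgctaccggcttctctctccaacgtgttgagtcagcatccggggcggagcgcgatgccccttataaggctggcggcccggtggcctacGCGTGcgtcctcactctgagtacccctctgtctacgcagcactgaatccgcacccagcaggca

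The antioxidant core was found in the windows of Gsta3 and Mgst1, starting 121 and 56 bases before the start. The xenobiotic core was found in Gsta1, Gsta2, Gstm1 and Gstp1. Neither core was found in Gstm2, Gsto1 or Gstt1, or in a second window of Mgst1, and the second window of Gstm1 held the same xenobiotic match. Among all 32851 promoter windows of the same length, 12.4% held the antioxidant core and 32.4% the xenobiotic core. These matches are letters in a window, and binding was not measured. Elements outside the windows, or with other letters, were not searched for.

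In the alpha class, reads were assigned to Gsta2, while its near-copy Gsta1 had few or none. The coding sequences of Gsta1 and Gsta2 were 97.6% identical, and over 289 aligned bases their promoter windows were 80.3% identical. The xenobiotic core began at -2 from the start in Gsta1, so it crossed the start, and at -7 in Gsta2. The Gsta2 window, placed by RefSeq, lies inside the GENCODE span of the gene given below. Gsta1 (chromosome 9, 78230656 to 78242684 in GRCm38) had 2 and 0 reads in KO, against 3 and 0 reads in WT. A count of 0 allowed up to 0.159 RPKM in KO replicate 2 and 0.198 RPKM in WT replicate 2, for counting error only. No fold change is given. Because 90.5% of its 50-base stretches were found in other genes, reads of Gsta1 may also have been dropped or assigned elsewhere. Gsta2 (chromosome 9, 78331018 to 78355788) had 1059 and 932 reads in KO and 1009 and 779 reads in WT. Its level was 57.3 and 40.1 RPKM in KO, against 61.9 and 41.8 RPKM in WT. The WT libraries lay as far apart as the KO libraries, and the groups overlapped (log2 change -0.09 ± 0.25 SE, limma adjusted p = 0.919).

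Gsta3, the alpha class gene with the highest level here, had nearly the same mean in both genotypes. In mice its product is known for detoxifying the activated form of aflatoxin. Gsta3 (chromosome 1, 21240589 to 21265661) had 189 and 146 RPKM in KO, against 167 and 166 RPKM in WT. The WT libraries nearly coincided, with a KO library on either side of them. Its log2 change was -0.01 ± 0.14 SE, with a 95% interval equal to 0.769-fold to 1.29-fold on the log2(RPKM + 1) scale and a limma adjusted p of 0.990. Gsta4 acts on 4-hydroxynonenal, a product of lipid peroxidation. It had 87.7 and 57.4 RPKM in KO and 88.2 and 78.4 RPKM in WT. KO replicate 1 lay within WT, and KO replicate 2 was the lowest library (log2 change -0.23 ± 0.21 SE, limma adjusted p = 0.722). The coding sequence of Gsta3 was 75.4% identical to that of Gsta2, and that of Gsta4 67.3%.

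Among the 9 genes tested, the mu class pair showed the widest spread, and the spread lay within KO. Mu class enzymes conjugate many foreign epoxides and quinones. Gstm1 (chromosome 3, 108012255 to 108017973) had 3308 and 1698 RPKM in KO, against 2337 and 2279 RPKM in WT. It ranked 5 and 12 among all gene IDs in the KO libraries and 7 and 8 in the WT libraries. In RPKM the KO libraries stood on opposite sides of WT, and KO replicate 1 was 1.95 times KO replicate 2. The reads, not scaled to depth, were 76473 and 49444 in KO and 47675 and 53105 in WT. By reads KO replicate 2, the deepest library, therefore lay between the WT libraries. Gstm2 (chromosome 3, 107981702 to 107986453) had 1652 and 929 RPKM in KO, against 1077 and 981 RPKM in WT. The order of the libraries was the same as for Gstm1, and KO replicate 1 was 1.78 times KO replicate 2. The log2 change was 0.04 ± 0.34 SE for Gstm1 (limma adjusted p = 0.976) and 0.27 ± 0.29 SE for Gstm2 (limma adjusted p = 0.764). The 95% intervals reached from 0.562-fold to 1.88-fold for Gstm1 and from 0.716-fold to 2.03-fold for Gstm2. The sign depended on which KO library was kept: without KO replicate 1 the log2 change was -0.44 for Gstm1 and -0.15 for Gstm2, and without KO replicate 2 it was 0.52 for Gstm1 and 0.68 for Gstm2. None of the 4 values passed the test. The coding sequences of Gstm1 and Gstm2 were 85.9% identical.

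The distance between the KO libraries was large for Gstm1 compared with other genes. On the log2(RPKM + 1) scale KO replicate 1 stood 0.96 above KO replicate 2, a distance that 216 of the 12391 genes tested (1.74%) reached in either direction. For Gstm2 it was 0.83, reached by 316 genes (2.55%). The WT libraries differed by 0.04 for Gstm1 and by 0.13 for Gstm2. Of the 9 genes tested, 4 (Gstm1, Gstm2, Gsta3 and Gstt1) had both WT libraries between KO replicate 1 at the top and KO replicate 2 at the bottom, against 9.32% of genes tested. The opposite order, with KO replicate 2 at the top, was seen in 0 of the 9 and in 8.34% of genes tested. KO replicate 2 was the lowest library for 7 of the 9, against 31.4% of genes tested. These orders were looked at after the values had been seen. Some of the 9 genes share sequence with other genes, as given above. Of the 50-base stretches of Gstm2, 0.655% were found in Gstm1 transcripts. Depth differed between the KO libraries as well, being highest in KO replicate 2, as did macrophage markers, at 770 RPKM in KO replicate 1 and 1206 RPKM in KO replicate 2. The Sertoli list, nearly all Inha, had the same nesting as Gstm1, with KO replicate 1 highest at 47.0 RPKM and KO replicate 2 lowest at 25.8 RPKM. Their part in the spread was not tested.

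In 3 other mu class genes, at lower levels, KO replicate 1 was also the highest library and KO replicate 2 the lowest. Gstm7 had 8.36 and 3.98 RPKM in KO, against 5.19 and 5.37 RPKM in WT. Gstm5, which lies at the edge of the mu cluster on chromosome 3, had 38.04 and 29.97 RPKM in KO, against 32.8 and 33.99 RPKM in WT. Gstm6 had 1.79 and 1.04 RPKM in KO and 1.27 and 1.53 RPKM in WT. Gstm4 was the exception among the mu genes that passed the filter, with 6.38 and 6.40 RPKM in KO, both below the 7.91 and 6.85 RPKM in WT. Gstm3 had at most 6 reads in any library. The pseudogene Gstm2-ps1 on chromosome 5 had 61.4 and 26.1 RPKM in KO, against 42.9 and 40.6 RPKM in WT, the same order of libraries as Gstm1. Of its stretches of 50 bases 35.4% were found in Gstm1 transcripts, so its reads may belong to Gstm1.

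**Figure D3:**
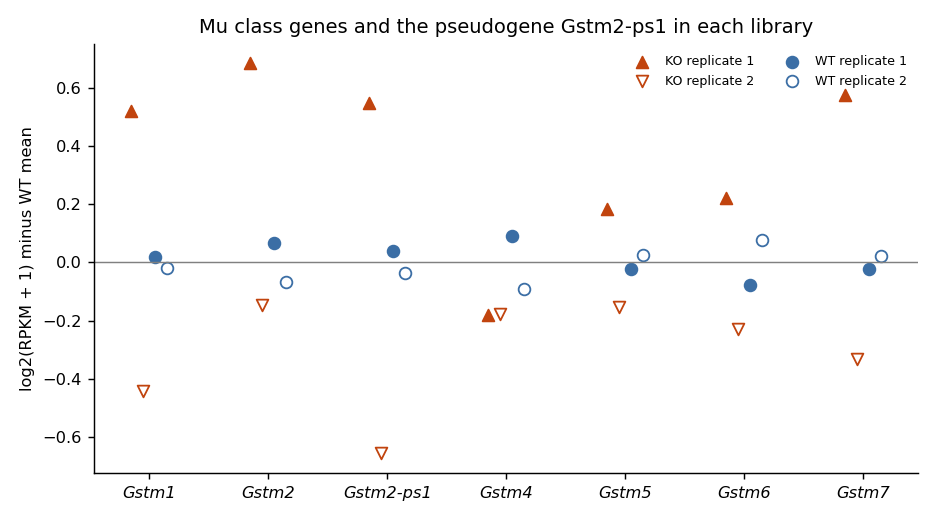
Level on the log2(RPKM + 1) scale minus the WT mean (vertical axis) of 6 mu class genes and the pseudogene Gstm2-ps1; triangles are KO libraries and circles WT libraries. KO replicate 1 is highest and KO replicate 2 lowest for all but Gstm4.

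Gstp1 was the only gene of the 10 whose libraries did not overlap between genotypes, and its difference did not pass the test over all genes. The pi class enzyme conjugates electrophiles and binds the stress kinase JNK. Gstp1 (chromosome 19, 4035407 to 4037985) had 206 and 180 RPKM in KO, against 234 and 288 RPKM in WT, a mean of 193 ± 18.2 in KO and 261 ± 38.4 in WT (SD, n = 2 each). Both KO libraries were below both WT libraries, which was so for 25% of genes tested, and 44.7% did not overlap in either direction. The log2 change was -0.43 ± 0.14 SE, equal to 0.742-fold with a 95% interval of 0.574-fold to 0.958-fold (limma unadjusted p = 0.0298, adjusted p = 0.373). 

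Copies of Gstp1 that share sequence with it also had negative log2 changes, and neither passed the test. The paralogue Gstp2, next to it on chromosome 19, had 1.16 and 0.591 RPKM in KO, against 1.13 and 1.48 RPKM in WT, and its groups overlapped (limma adjusted p = 0.625). The pseudogene Gstp-ps had 12.4 and 8.18 RPKM in KO and 14.6 and 13.4 RPKM in WT (limma adjusted p = 0.462). Its KO libraries were both below its WT libraries, as in 25% of genes tested. Of its stretches of 50 bases 60.5% were found in Gstp1 transcripts, and of those of Gstp2 49.1%. Reads assigned to Gstp-ps and Gstp2 may therefore belong to Gstp1. Endothelial and peritubular myoid markers, whose sums are given above, were also lower in both KO libraries. Of 6 fibroblast markers that passed the filter, 4 had a negative log2 change, and the list summed to 285 and 227 RPKM in KO and to 283 and 316 RPKM in WT, which overlapped. Their part in the Gstp1 difference was not tested. In bulk RNA, fewer cells of a type and less RNA per cell cannot be told apart.

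Among 7037 other genes with a mean of at least 5 RPKM, those whose centred log2(RPKM + 1) profile over the 4 libraries came nearest to that of Gstp1 were Phldb1, Snrpa and the lysyl oxidase-like gene Loxl1. Their root-mean-square distances were 0.0377 for Phldb1, 0.0382 for Snrpa and 0.0482 for Loxl1, and 70 genes lay within 0.1. Loxl1 had 15.6 and 14.5 RPKM in KO, against 18.2 and 21.7 RPKM in WT. With 4 libraries this likeness is a description.

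The theta, omega and microsomal genes had similar means in both genotypes. Gstt1, which acts on small halogenated compounds, had 14.97 and 9.24 RPKM in KO, against 11.2 and 13.0 RPKM in WT (chromosome 10, 75783813 to 75798584). The KO libraries stood on either side of WT (log2 change -0.03 ± 0.22 SE, limma adjusted p = 0.973). Gsto1, which reduces mixed disulfides and dehydroascorbate, had 32.4 and 32.1 RPKM in KO and 31.4 and 35.2 RPKM in WT (chromosome 19, 47854970 to 47864790). Its KO libraries lay within the range of WT, and it had the narrowest interval of the family, 0.828-fold to 1.14-fold (log2 change -0.04 ± 0.09 SE, limma adjusted p = 0.882). Mgst1, which sits in the membranes of the endoplasmic reticulum and mitochondria and also reduces lipid peroxides, had 387 and 344 RPKM in KO, against 363 and 341 RPKM in WT (chromosome 6, 138140316 to 138156755). All 4 libraries of Mgst1 lay close together, with an interval of 0.844-fold to 1.28-fold (log2 change 0.05 ± 0.12 SE, limma adjusted p = 0.889).

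**Figure D4:**
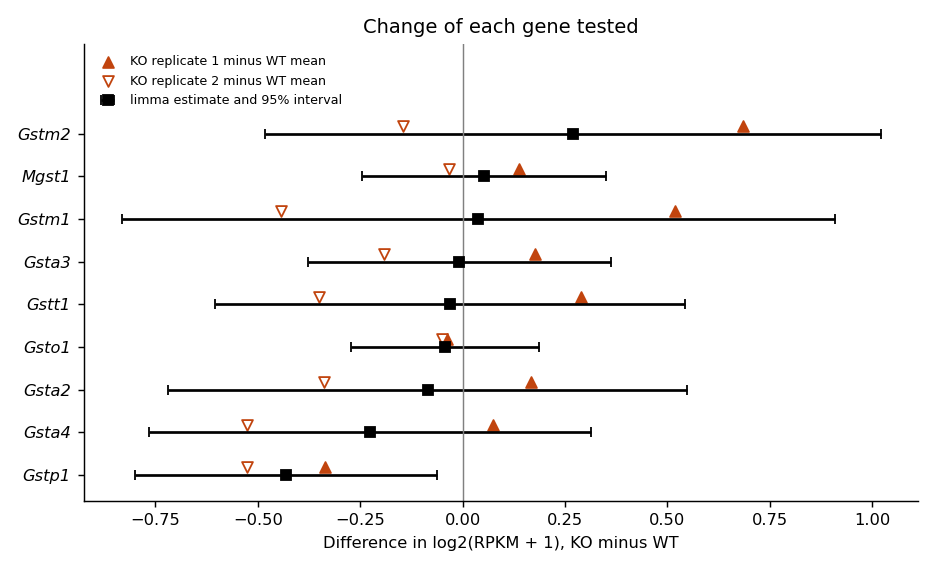
Difference in log2(RPKM + 1), KO minus WT (horizontal axis), of the 9 genes tested; squares and bars are limma estimates with 95% intervals, and triangles are each KO library minus the WT mean. Gstm1 has the widest interval, with its KO libraries at 0.52 and -0.44, and Gstp1 is the only gene whose interval does not include 0.

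Other members of the family and of the membrane-bound group that includes Mgst1 (MAPEG) did not pass either. Of 22 with a row, 16 were tested, with 6 positive and 10 negative log2 changes and a median of -0.07. At a false discovery rate of 0.05, 0 passed, and 1 had an unadjusted p under 0.05, against 11.7% of all genes tested. That gene was Ptges, the inducible prostaglandin E synthase, with 107 and 143 RPKM in KO, against 83.7 and 76.2 RPKM in WT. Both KO libraries were above both WT libraries (log2 change 0.62 ± 0.16 SE, limma adjusted p = 0.291), as in 19.7% of all genes tested. Ptges was picked for the smallest p-value of the list, which favours groups that do not overlap. After Ptges the smallest p-values were those of Gstp-ps, given above, and Ptges2, another prostaglandin synthase by name, with 3.41 and 2.78 RPKM in KO and 3.68 and 3.92 RPKM in WT.

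Genes that make and recycle glutathione lay on both sides of WT. Of 23 tested, 8 had positive and 15 negative log2 changes (median -0.02), 0 passed over all genes, and 1 positive and 5 negative had an unadjusted p under 0.05, against 4.33% higher and 7.42% lower of all genes tested. Pgd, a source of the NADPH that keeps glutathione reduced, had 50.7 and 43.9 RPKM in KO, against 73.4 and 68.6 RPKM in WT (log2 change -0.58 ± 0.10 SE, limma adjusted p = 0.195). The neutral amino acid carrier Slc1a4 had 7.30 and 5.63 RPKM in KO and 10.7 and 10.4 RPKM in WT. Glutathione reductase Gsr had 19.7 and 19.2 RPKM in KO and 25.7 and 24.7 RPKM in WT. In each of the 3 genes both KO libraries were below both WT libraries, as in 25% of all genes tested. They were picked for the smallest p-values of the list, which favours groups that do not overlap. Idh1, another source of NADPH, was the positive one (limma adjusted p = 0.263). It had 436 and 500.2 RPKM in KO, against 318 and 324 RPKM in WT. Gclm, the modifier subunit of the first enzyme of glutathione synthesis, had 11.8 and 13.9 RPKM in KO and 18.1 and 14.9 RPKM in WT. The catalytic subunit, Gclc, had 35.2 and 28.5 RPKM in KO and 29.0 and 28.6 RPKM in WT. The limma adjusted p was 0.422 for Gclm, with a negative log2 change, and 0.702 for Gclc, with a positive one. Idh1, Gclm and Gclc were picked out after their values had been seen.

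Enzymes outside the family that use glutathione divided evenly. Of 17 tested, 9 had positive and 8 negative log2 changes (median 0.0035), 0 passed over all genes, and 3 negative ones had an unadjusted p under 0.05, against 7.42% of all genes tested. Esd, which hydrolyses S-formylglutathione, had 103 and 101 RPKM in KO, against 163 and 148 RPKM in WT (log2 change -0.60 ± 0.09 SE, limma adjusted p = 0.170). The mitochondrial sulfur dioxygenase Ethe1 had 6.01 and 6.17 RPKM in KO and 7.10 and 7.46 RPKM in WT. Glutaredoxin Glrx had 8.26 and 8.62 RPKM in KO and 10.7 and 9.56 RPKM in WT. In all 3 genes, also picked for their small p-values, both KO libraries were below both WT libraries, as in 25% of all genes tested.

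Of 11 genes for conjugate export and mercapturate formation that were tested, 3 had positive and 8 negative log2 changes (median -0.05), 0 passed over all genes, and 2 negative ones had an unadjusted p under 0.05, against 7.42% of all genes tested. The glutathione conjugate exporter Abcc1 had 15.6 and 12.4 RPKM in KO, against 18.5 and 18.2 RPKM in WT (log2 change -0.37 ± 0.12 SE, limma adjusted p = 0.370). The related transporter Abcc4 had 10.9 and 9.49 RPKM in KO and 12.5 and 12.2 RPKM in WT. The KO libraries of both transporters, also picked for their small p-values, lay below the WT libraries, as in 25% of all genes tested.

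Regulators of the family had the lowest median of the lists, -0.13. Of 11 tested, 4 had positive and 7 negative log2 changes (53.8% of all genes tested were negative), 0 passed over all genes, and 3 negative ones had an unadjusted p under 0.05, against 7.42% of all genes tested. The small Maf proteins pair with NRF2 on antioxidant elements. Maff had 10.5 and 10.6 RPKM in KO, against 18.2 and 16.3 RPKM in WT (log2 change -0.66 ± 0.09 SE, limma adjusted p = 0.144). Mafk had 14.6 and 14.0 RPKM in KO and 17.8 and 19.2 RPKM in WT. The aryl hydrocarbon receptor gene Ahr had 5.38 and 6.20 RPKM in KO and 6.92 and 7.29 RPKM in WT. Both KO libraries of these 3 genes, also picked for their small p-values, were below both WT libraries, as in 25% of all genes tested. Nfe2l2, which encodes NRF2 and was picked out after its values had been seen, had 72.4 and 71.7 RPKM in KO, against 83.3 and 74.96 RPKM in WT (limma adjusted p = 0.632). The nearest tested genes outside the family on either side of the 10 genes numbered 16, with 7 positive and 9 negative log2 changes, 0 that passed over all genes and 4 with an unadjusted p under 0.05, against 11.7% of all genes tested.

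**Figure D5:**
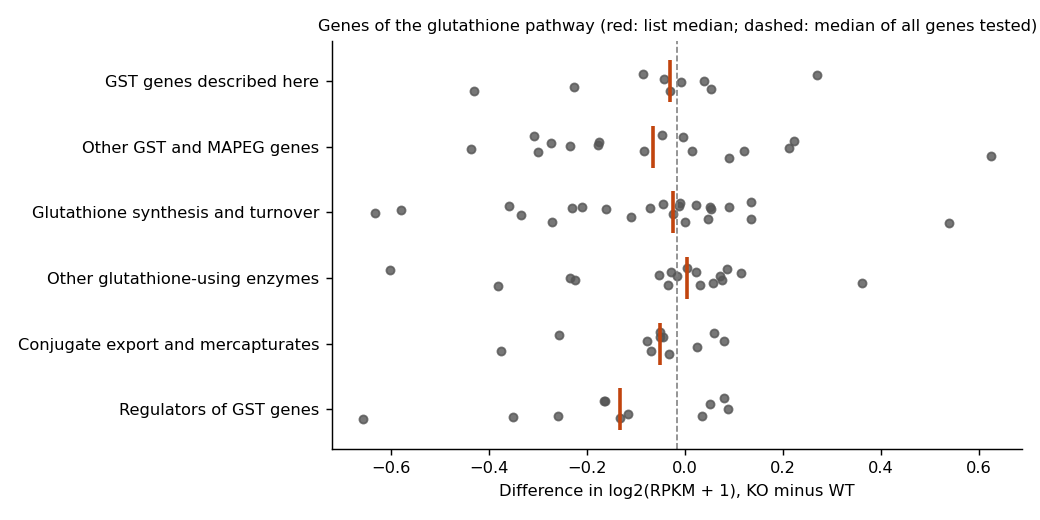
Difference in log2(RPKM + 1), KO minus WT (horizontal axis), of single genes (points) in the 9 glutathione S-transferases tested and in 5 lists of related genes; red lines are list medians and the dashed line the median of all 12391 genes tested. The list medians lie between -0.13, for the regulators, and 0.0035, and the median of all genes is -0.02.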

How the data were processed

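RNA was extracted with Trizol and sequenced from 2 KO and 2 WT Leydig cell libraries, per the labels' protocols; genotype set the groups. Each file holds 1 value per Ensembl ID, deposited by the authors as RPKM so far as the values show, since the header names no unit: multiplied by exonic length in GENCODE M21 (GRCm38), between 90.4% and 90.7% of those above 0 were whole multiples of 1 step per library within 0.01 reads. Gstp1 and Gsto1 were not whole and were used as deposited. Per the submitters' processing notes the build was mm9, while the aligner, the counting and the gene models are not stated, so coordinates are GENCODE's or RefSeq's on GRCm38. Symbols matched 27306 IDs.

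Genes that reached 1 RPKM in 2 libraries were compared as log2(RPKM + 1), which understates changes of low genes, with limma 3.58.1 in R 4.3.3 (genotype alone, empirical Bayes with trend, 2-sided, Benjamini-Hochberg). The fit was tested on simulated data. Sequences were compared with Biopython 1.88 under Python 3.11.15. A floor of 3 reads covers counting error only.

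The genes and lists were chosen with earlier results of these data known. Named were all 10 genes, the 3 smallest p-values of each list (1 gene of the export list is not reported here), and the 3 profiles nearest to the gene of largest change with a mean of at least 5 RPKM. Alternatives were other scalings, filters, pseudocount and variance model, each library left out, a replicate block, voom on recovered reads, and summed paralogues.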

Additional observations from a re-analysis of the deposited data

How the results depend on the processing

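None of the 9 genes passed a false discovery rate of 0.05 in limma under any of the 13 alternatives that gave it a value; the smallest adjusted p was 0.0682, for Gsta4 without KO replicate 1. Over all genes 0 passed under every alternative except without KO replicate 1 (306 genes) and without KO replicate 2 (139 genes), in fits that assume that the lone KO library varies like the WT pair, so leaving out a library gave 0 to 306. The median of the 9 genes ranged from -0.34 without KO replicate 1 to 0.17 without KO replicate 2. With a library left out, the log2 change ranged from -0.44 to 0.52 for Gstm1, -0.15 to 0.68 for Gstm2, -0.36 to 0.19 for Gsta2, -0.19 to 0.18 for Gsta3, -0.53 to 0.0750 for Gsta4, -0.35 to 0.29 for Gstt1, -0.12 to 0.0366 for Gsto1, -0.0319 to 0.14 for Mgst1 and -0.58 to -0.28 for Gstp1, the only gene of the 9 that kept its sign throughout. The unadjusted p of Gstp1 was under 0.05 in 8 of 12 alternatives, and not without the filter, with the replicate block, without KO replicate 2 or without WT replicate 2. Under quantile normalization the sign turned for Gsta3 (0.0242), Gstm1 (-0.0201) and Mgst1 (-0.0039), and under trimmed-mean rescaling for Gsta3 (0.0112); the cause was not tested. Voom on recovered reads gave no value for Gstp1 and Gsto1, and summing paralogues gave none for Gstm2 alone.

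The title suffix marks a possible replicate block, but same-suffix libraries did not deviate together (r = -0.0959 across 12391 genes), and with the block 0 genes passed and the median of the 9 genes was -0.03. With 2 libraries a group, the number of libraries limits the precision. Depth and sequence shared with other genes limit Gsta1, at 0 to 3 reads.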
